A study of Mus musculus with 2 samples.

Results

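The transcription factors described here, Tcf7, Lef1, Bach2, Id3, Tox, Nr4a2, Prdm1, Eomes, Tbx21 and Id2, are 10 genes known for steering T cells and natural killer (NK) cells between long-lived, effector and dysfunctional states. They were chosen by symbol and are 10 of the 32432 genes counted. They are described in 4 cell populations of B16-F10 melanomas from mice: 5319 CD8 T cells, 645 CD4 T cells, 524 regulatory T (Treg) cells and 110 NK cells, out of 22051 cells kept. Leukocytes were sorted from the tumours for CD45, the surface protein shared by blood-derived cells, and their transcripts were counted cell by cell from the 3′ end. Each count is a unique molecular identifier (UMI), that is, 1 captured RNA molecule.

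The study asked how loss of Trex1, an exonuclease that degrades cytosolic DNA, shapes the immune response to a tumour. In the group called iKO both Trex1 alleles were conditional (Trex1 fl/fl), and in the control group 1 was conditional and the other wild type (Trex1 wt/fl), so the controls were heterozygous for the allele and not unmodified. All animals also carried 1 copy of CreERT2 in the ubiquitously active Rosa26 locus (R26CreERT2-ki/wt), and all were treated with tamoxifen, which activates this recombinase throughout the host. The hosts were male mice aged 8 to 12 weeks. Each received B16-F10 cells, suspended in Matrigel, intradermally on either leg, tamoxifen at 1 mg followed for 3 days starting on day 5, and tumours were collected on day 14. Each genotype was loaded as 1 pool of 4 samples told apart by hashtag antibodies, giving 4 iKO and 4 control samples. Genotype and pool are therefore the same split of the samples and cannot be told apart. The labels do not say that each hashtagged sample was 1 mouse, so p-values measure the spread between these samples, whatever its source.

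Naive, memory and stem-like T cells depend on TCF1 (the product of Tcf7), its relative LEF1, the repressor BACH2 and ID3, which keep effector programmes in check. Effector differentiation in CD8 T and NK cells runs through the T-box factors T-bet (Tbx21) and EOMES together with ID2, and its end stage through the repressor BLIMP1 (Prdm1). Repeated antigen contact in tumours induces TOX and the NR4A nuclear receptors, which are known for their part in T cell exhaustion, the state of reduced function marked by the inhibitory receptor PD1 (Pdcd1).

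The samples held between 17111065 and 96457227 UMIs, and the median cell had 12535.5 to 14221 UMIs for iKO against 5794 to 11490 for control. No 2 samples of a pool shared a cell barcode, and samples of different pools shared between 0 and 6. A cell's own hashtag had the highest count in 100% of cells in 7 samples and 99.8% in iKO sample 3. Trex1 itself was counted at 2 UMIs, both in 1 cell of control sample 2, and at 0 in the other 7 samples, too few to check the genotype labels. The 4 populations were gated on UMIs: Cd3 genes with Cd8a or Cd8b1 for CD8 T, with Cd4 for CD4 T, with Foxp3 for Treg, and Ncr1 or Klrb1c without Cd3 for NK cells. Levels are in CPM, the UMIs of a gene divided by the profile's total and scaled to a common total. A list of 4 Treg genes summed to 2356.5 to 5023 CPM in the Treg gate and 400.3 to 814 in the CD8 T gate. In the CD4 T gate this list summed to 786 to 1652 CPM in iKO and 682 to 978 in control samples. The CD4 T gate excluded Treg cells by Foxp3 UMIs only, so Treg cells whose Foxp3 went uncounted can lie in it. Their part in the comparisons of CD4 T with Treg cells was not tested. Klra8, an NK receptor outside the gate's own genes, stood at 396 to 560.4 CPM in NK cells and 0 to 6.99 in CD8 T cells. A list of 3 CD8 T genes (Cd8b1, Ccl5 and Nkg7), of which NK cells also express Ccl5 and Nkg7, summed to 8818 to 14947 CPM in the NK gate and 5299.8 to 9664 in the CD8 T gate. Cd8b1 was at 0 in the NK gate because that gate allowed no Cd8a or Cd8b1 UMI, so this value is no check of the gate. A list of 6 T cell genes summed to 1349 to 1743 CPM in the NK gate and 2719 to 3903 in the CD8 T gate. Neutrophil transcripts differed between the groups in each gate. The 4 neutrophil genes summed to 77.7 to 116 CPM in the CD8 T gate of the iKO samples and 249 to 331 in the controls, to 109.5 to 214 and 373 to 489 in CD4 T cells, to 88.1 to 113 and 222 to 343 in Treg cells, and to 88.1 to 113 and 334 to 351 in NK cells. A list of 6 macrophage genes summed to 261 to 302 CPM in iKO and 525 to 899 in control CD4 T cells, and its groups overlapped in the other gates. These 6 genes, with S100a8 and S100a9 of the neutrophil list, are among the myeloid genes whose UMIs the gates limited. The sums of both lists are therefore bounded by the gates. The 6 T cell genes summed to 3809 to 3903 CPM in iKO and 2719 to 3382 in control CD8 T cells. In Treg cells they summed to 3906 to 4173 in iKO and 2252 to 3449 in control samples, and in CD4 T and NK cells the groups overlapped. The part of these 3 lists in any difference between the genotypes was not tested.

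The upstream sequences of 3 members are shown because their genes moved in opposite directions in the comparison of CD8 T cells with and without Tcf7 further below: Lef1 and Bach2 were higher beside Tcf7, and Prdm1 lower. Of the 10 members 9 had an entry in the RefSeq start-site table (build GRCm38.p6), and the table has no entry used here for Tox. The windows are the 250 bases before the outermost listed start, printed in the gene's own direction. The 3 printed windows overlap no exon of their gene in GENCODE M21, while the windows of Id2 and Id3 overlap exons by 161 and 250 bases. The Lef1 window is chr3:131110047-131110296 on the plus strand, the Bach2 window chr4:32417185-32417434 on the plus strand and the Prdm1 window chr10:44458749-44458998 on the minus strand, all in GRCm38.p6 and not in the GRCm39 build of the count tables. Capitals mark matches on either strand to 3 motifs: CANNTG (the E-box, bound by the E proteins that ID2 and ID3 block), CTTTGA (the TCF and LEF core) and AAAGGTCA (the element bound by NR4A receptors).
Lef1: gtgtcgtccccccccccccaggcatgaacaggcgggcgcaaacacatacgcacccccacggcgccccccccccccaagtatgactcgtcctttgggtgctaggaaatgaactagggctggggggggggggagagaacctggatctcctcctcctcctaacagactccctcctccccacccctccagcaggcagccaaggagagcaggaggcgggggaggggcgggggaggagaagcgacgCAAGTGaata
Bach2: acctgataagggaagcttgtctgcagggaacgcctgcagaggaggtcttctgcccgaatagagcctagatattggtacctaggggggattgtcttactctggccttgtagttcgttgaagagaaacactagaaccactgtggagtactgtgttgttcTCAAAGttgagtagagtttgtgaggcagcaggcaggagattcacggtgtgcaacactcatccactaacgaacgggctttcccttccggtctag
Prdm1: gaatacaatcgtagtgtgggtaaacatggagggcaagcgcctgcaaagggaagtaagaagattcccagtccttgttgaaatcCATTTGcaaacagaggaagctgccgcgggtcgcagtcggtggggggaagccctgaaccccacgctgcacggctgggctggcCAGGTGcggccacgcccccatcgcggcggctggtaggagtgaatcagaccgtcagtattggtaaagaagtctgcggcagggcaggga
The Lef1 window held 1 E-box, the Prdm1 window 2 E-boxes, and the Bach2 window 1 TCF and LEF core, read as TCAAAG on the printed strand. No printed match overlapped another. The Tcf7 window, which held 1 E-box, is left out of the counts, since it may lie within the coding part of a long isoform. It overlaps no exon of Tcf7 in GENCODE M21. Among the other 8 windows, an E-box was found in 4 (Lef1, Tbx21, Id2 and Prdm1), the TCF and LEF core in 1 (Bach2) and the NR4A element in 0. Of 27025 genes with a window of the same length, 66.1% held an E-box, 14.1% the TCF and LEF core and 1.31% the NR4A element. These matches describe the letters of the windows and show no binding.

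Levels were summed over the cells of a gate in each sample, giving 1 profile per sample and gate, expressed as CPM, and compared between gates within the samples by edgeR's quasi-likelihood test with the sample as a block and Benjamini-Hochberg adjustment over 8789 genes (called below an adjusted p of 0.05). Profiles needed at least 10 cells, which only iKO samples 1 and 2 and control samples 1 and 3 reached for NK cells. Means for NK cells are over these 4 samples and means for the other gates over all 8. By mean level, Tcf7 and Lef1 were highest in CD4 T cells, Tox and Nr4a2 in CD8 T cells, Prdm1 in Treg cells, and Eomes, Tbx21 and Id2 in NK cells. Not every one of these leads over another gate was called, as given per gene below. Against CD4 T cells, 6 members were called in CD8 T cells, 4 higher and 2 lower, where 30.4% of all genes were called (16% higher and 14.4% lower). Against Treg cells, 9 were called in CD8 T cells, 8 higher and 1 lower, against 23.7% of all genes (11.5% higher, 12.2% lower). Against NK cells, 5 were called in CD8 T cells, 2 higher and 3 lower, against 14.6% (8.11% higher, 6.47% lower). In CD4 T cells against Treg cells 5 were called, 4 higher and 1 lower, against 24.3% (11.5% higher, 12.8% lower). In CD4 T cells against NK cells 5 were called, 1 higher and 4 lower, against 9.86% (4.79% higher, 5.07% lower). In Treg cells against NK cells 8 were called, 2 higher and 6 lower, against 19.1% (10% higher, 9.03% lower). These comparisons share profiles with each other, so their counts are not independent.

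**Figure D1:**
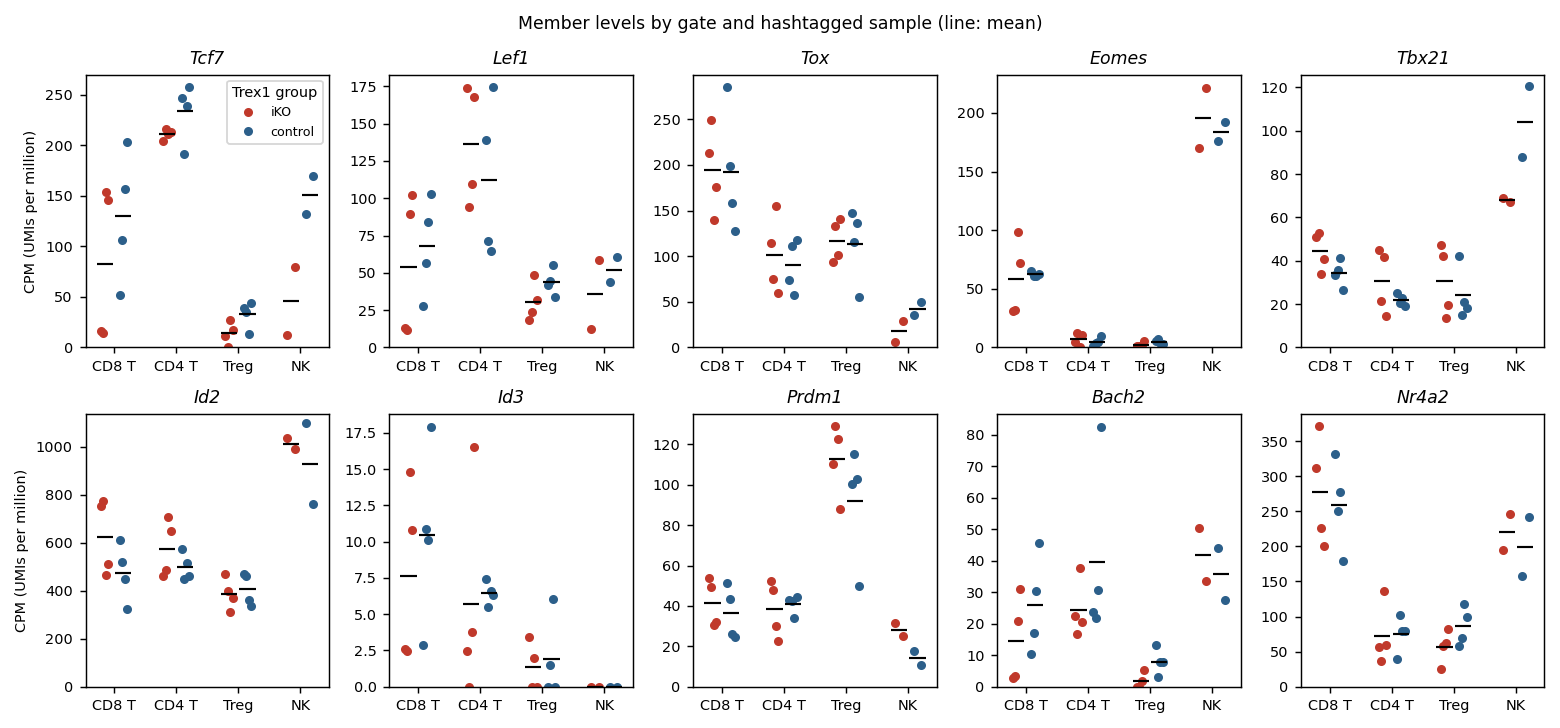
Level of each member (vertical axis, CPM, a scale of its own per gene) in the 4 gates (horizontal axis), 1 point per hashtagged sample with at least 10 gated cells, red for iKO and blue for control, with a line at each group's mean. By mean level, Tcf7 was highest in CD4 T cells and lowest in Treg cells, Prdm1 was highest in Treg cells, and Eomes and Tbx21 were highest in NK cells.

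Tcf7, which encodes TCF1 (ENSMUSG00000000782), had its highest mean in CD4 T cells and was most even there. In that gate iKO samples 1 to 4 had 204, 216.5, 212 and 213 CPM, and control samples 1 to 4 had 247, 192, 238 and 257 CPM. In Treg cells the same samples had 11.5, 0.943, 27.3 and 17.6 CPM and 39.5, 35.4, 13.0 and 44.4 CPM. Every CD4 T profile was above every Treg profile, and the fitted log2 difference was 3.62 (SE 0.43, adjusted p 8.47e-07). NK cells had 12.6 and 79.5 CPM in iKO samples 1 and 2 and 132 and 170.0 CPM in control samples 1 and 3. The mean level fell in the order CD4 T (223 CPM), CD8 T (106 CPM), NK (98.5 CPM, 4 samples only) and Treg (23.7 CPM). CD8 T cells were lower than CD4 T cells by a log2 difference of -1.42 (SE 0.34, adjusted p 0.00209) and higher than Treg cells by 2.20 (SE 0.43, adjusted p 0.000261). CD8 T and NK cells did not differ beyond their spread (log2 -0.56, SE 0.60, adjusted p 0.609). The sign of this within-sample difference was opposite to that of the means, which cover unlike sets of samples. CD4 T cells were not called above NK cells (log2 0.87, SE 0.58, adjusted p 0.42). Treg cells were lower than NK cells (log2 -2.76, SE 0.71, adjusted p 0.00617), a call that was lost without control sample 3 (adjusted p 0.0514).

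Lef1 (ENSMUSG00000027985), the HMG-box partner of Tcf7, followed a flatter version of this order. In CD4 T cells it had 174, 93.8, 109.6 and 168 CPM in iKO samples and 139, 71.3, 64.5 and 175 CPM in control samples. In Treg cells it had 18.4, 23.6, 48.7 and 31.7 CPM in iKO samples and 42.2, 44.3, 55.4 and 34.0 CPM in control samples. All CD4 T profiles were above all Treg profiles. The log2 difference was 1.79 (SE 0.38, adjusted p 0.000966), but was not called when cells were gated after thinning to 2000 UMIs each (log2 0.91, adjusted p 0.183). CD8 T cells were lower than CD4 T cells (log2 -1.24, SE 0.33, adjusted p 0.00499). CD4 T against NK cells was not called (log2 1.02, SE 0.64, adjusted p 0.386). CD8 T, NK and Treg cells, with means of 60.9, 43.9 and 37.3 CPM, did not differ beyond their spread between neighbours (adjusted p 0.887 between CD8 T and NK and 0.514 between NK and Treg). Within samples the CD8 T against NK difference was log2 -0.23, with a sign opposite to that of these means.

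Bach2 (ENSMUSG00000040270), a repressor of effector genes, was scarce in Treg cells, with 0, 0, 1.95 and 5.29 CPM in iKO samples and 13.2, 2.95, 7.79 and 7.84 CPM in controls. CD4 T cells had 22.4, 16.8, 37.8 and 20.7 CPM in iKO samples and 23.7, 21.9, 30.6 and 82.6 CPM in controls. No Treg profile reached the lowest CD4 T profile, and the log2 difference was 2.81 (SE 0.50, adjusted p 0.00017). The order of means was NK (38.8 CPM), CD4 T (32.1 CPM), CD8 T (20.2 CPM) and Treg (4.87 CPM), and only the last step was called (CD8 T over Treg, log2 2.07, SE 0.47, adjusted p 0.0014). Between the outer pair, Bach2 was lower in Treg than in NK cells (log2 -4.01, SE 0.75, adjusted p 0.00029). CD8 T cells were also lower than NK cells (log2 -1.94, SE 0.61, adjusted p 0.0306). That call was lost without control sample 1 (adjusted p 0.0674), iKO sample 1 (0.173) or iKO sample 2 (0.193).

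Id3 (ENSMUSG00000007872), an inhibitor of E proteins, was the least counted member. CD8 T cells had 2.59, 2.44, 14.8 and 10.8 CPM in iKO samples and 2.88, 10.8, 10.1 and 17.9 CPM in controls. CD4 T cells ranged from 0 to 16.6 CPM and Treg cells from 0 to 6.06 CPM. The level in CD8 T cells was above that in Treg cells (log2 2.06, SE 0.53, adjusted p 0.00537), and neither CD8 T against CD4 T (log2 0.47, adjusted p 0.472) nor CD4 T against Treg (log2 1.59, adjusted p 0.0804) was called. NK cells had 0 Id3 UMIs among 872992, which allows up to 3.44 CPM (3 counts over all 110 cells; this covers counting error only). After each cell was thinned to 2000 UMIs, 0.556 to 3.42% of CD8 T cells per sample held an Id3 UMI, while macrophages of these tumours, a cell type with its own Id3 transcripts, reached 2.61 to 10.5%, so this share alone does not separate expression from free RNA.

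Tox (ENSMUSG00000041272), an HMG-box factor of chronically stimulated T cells, was highest in CD8 T cells. It had 213, 249, 139.6 and 175.5 CPM in iKO samples and 285, 198, 158 and 127 CPM in controls. The means were 193 CPM in CD8 T, 115 CPM in Treg, 95.6 CPM in CD4 T and 30.0 CPM in NK cells. CD8 T cells were above Treg cells (log2 0.85, SE 0.19, adjusted p 0.00107), above CD4 T cells (log2 1.15, SE 0.20, adjusted p 0.00011) and above NK cells (log2 2.82, SE 0.41, adjusted p 2.13e-05). CD4 T and Treg cells were not told apart (log2 -0.30, SE 0.22, adjusted p 0.352). The 4 NK profiles, at 6.29, 29.3, 35.2 and 49.35 CPM, all lay below the lowest profile of the other gates, 54.9 CPM in a Treg sample. The CD4 T difference from NK cells (log2 1.67, SE 0.45, adjusted p 0.015) was lost without iKO sample 1 (adjusted p 0.0928) or iKO sample 2 (adjusted p 0.052).

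Nr4a2 (ENSMUSG00000026826), a nuclear receptor induced by antigen receptor signals, split the gates into a high and a low pair. CD8 T cells had 312, 371.5, 226 and 201 CPM in iKO samples and 331, 250.4, 277.5 and 179 CPM in controls, and the 4 NK profiles had 195, 247, 158 and 241 CPM. CD4 T cells ranged from 36.1 to 136 CPM and Treg cells from 25.3 to 118 CPM, below every CD8 T and NK profile. CD8 T cells exceeded CD4 T cells by a log2 difference of 2.03 (SE 0.24, adjusted p 8.17e-07) and Treg cells by 2.09 (SE 0.24, adjusted p 1.24e-07). Neither CD8 T against NK (log2 0.45, adjusted p 0.396) nor CD4 T against Treg (log2 0.06, adjusted p 0.915) was called. Of 10 immediate-early genes, which respond to tissue handling as well as to antigen, 0 were higher and 8 lower in CD8 T than in CD4 T cells, and the part of handling in the Nr4a2 difference was not tested.

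Prdm1 (ENSMUSG00000038151), whose product BLIMP1 is abundant in effector Treg cells, marked the Treg gate. Treg cells had 110.5, 129, 123 and 88.1 CPM in iKO samples and 100.1, 115, 103 and 49.6 CPM in controls. CD8 T cells had 54.0, 49.5, 30.6 and 32.1 CPM and 51.2, 43.4, 26 and 24.7 CPM in the same order. In 7 of 8 samples the Treg profile was above every CD8 T and CD4 T profile, and control sample 4 was lowest among Treg profiles. The log2 difference was -1.28 (SE 0.13, adjusted p 1.16e-08) for CD8 T against Treg cells and -1.36 (SE 0.15, adjusted p 3.04e-07) for CD4 T against Treg cells. CD8 T and CD4 T cells, at means of 38.9 and 39.6 CPM, were not told apart (log2 0.08, SE 0.15, adjusted p 0.75), yet gating on thinned cells turned that difference to -0.51 (adjusted p 0.00756). NK cells had the lowest mean, 21.3 CPM. The CD8 T call over NK cells (log2 1.09, SE 0.32, adjusted p 0.0195) was lost without control sample 1 (adjusted p 0.0783), control sample 3 (0.0636) or iKO sample 2 (0.0655), and with DESeq2 (0.0621).

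Eomes (ENSMUSG00000032446), a T-box factor of cytotoxic lymphocytes, had the widest range across gates. NK cells had 170 and 222 CPM in iKO samples 1 and 2 and 176 and 192 CPM in control samples 1 and 3. CD8 T cells had 30.8, 31.6, 98.8 and 72.0 CPM in iKO samples and 64.8, 61.3, 60.9 and 62.4 CPM in controls. CD4 T cells ranged from 0 to 12.03 CPM and Treg cells from 0 to 7.38 CPM. Neither of these last gates reached any CD8 T profile, and no CD8 T profile reached NK cells. The log2 difference was 3.46 (SE 0.31, adjusted p 7.15e-09) for CD8 T over CD4 T cells, 4.31 (SE 0.32, adjusted p 1.04e-10) for CD8 T over Treg cells and -2.03 (SE 0.28, adjusted p 1.14e-05) for CD8 T against NK cells. CD4 T and Treg cells were not told apart (log2 0.84, SE 0.57, adjusted p 0.309).

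Tbx21 (ENSMUSG00000001444), the gene of T-bet, varied less. Mean levels were 86.2 CPM in NK, 39.5 CPM in CD8 T, 27.3 CPM in Treg and 26.3 CPM in CD4 T cells. The 4 NK profiles, 69.2, 66.9, 87.9 and 121 CPM, were all above the highest CD8 T profile, 52.9 CPM. That log2 difference of -0.79 (SE 0.28) just missed the threshold (adjusted p 0.0552), and DESeq2 called it (log2 -0.84, adjusted p 0.026). CD8 T cells were above CD4 T cells (log2 0.75, SE 0.20, adjusted p 0.00598) and Treg cells (log2 0.71, SE 0.19, adjusted p 0.00599). CD4 T cells were lower than NK cells by -1.54 (SE 0.31, adjusted p 0.00118), and Treg cells were lower than NK cells by -1.50 (SE 0.30, adjusted p 0.000632).

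Id2 (ENSMUSG00000020644), the E protein inhibitor that innate lymphocytes and effector T cells need, also peaked in NK cells, at 1038 and 991 CPM in iKO samples 1 and 2 and 1099 and 762 CPM in control samples 1 and 3. CD8 T cells had 752, 773, 465 and 512 CPM in iKO samples and 612, 519, 448 and 325 CPM in controls. The gates overlapped for this gene, as the lowest NK profile lay below the highest CD8 T profile. Within samples CD8 T cells were lower than NK cells (log2 -0.66, SE 0.16, adjusted p 0.0076) and higher than Treg cells (log2 0.57, SE 0.13, adjusted p 0.00121). CD8 T and CD4 T cells did not differ beyond their spread (log2 0.09, SE 0.13, adjusted p 0.629). CD4 T cells were above Treg cells (log2 0.48, SE 0.13, adjusted p 0.00822), a call lost when gating on thinned cells (log2 0.21, adjusted p 0.287).

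Other transcription factors that act beside the members came from a list of 26, of which 25 were tested in each gate comparison. CD8 T cells had 3 higher (Myb, log2 1.13, a regulator of stem-like T cells, Runx3, 0.64, and Stat3, 0.56) and 11 lower than CD4 T cells, with Maf at -3.07 and Rora at -2.24, both factors of helper subsets. CD4 T cells had 10 higher and 3 lower than Treg cells, with Klf2, the quiescence and homing factor, at 2.63 and Ikzf2, a Treg factor, at -2.53. The list's median log2 difference was -0.56 for CD8 T against CD4 T cells, where that over all genes was -0.002, and 0.43 for CD4 T against Treg cells, where that over all genes was 0.0057.

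Under the main settings no member was called between genotypes in any gate, while some alternatives called members, as given below. In CD8 T cells, where all 10 were tested, edgeR's quasi-likelihood test on 4 against 4 samples called 0 of 10 after adjustment over 9753 genes and 1 of 10 at an unadjusted p under 0.05, where 2.95% and 17.5% of all genes passed. DESeq2 called 0. No member's groups were free of overlap, which 11.4% of all genes were. The members' log2 differences (iKO minus control) ran from -1.07 to 0.41 with a median of -0.07, where the median over all genes was -0.01.

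The samples within each genotype differed more than the genotypes did for Tcf7. In CD8 T cells it had 16.1, 14.4, 154 and 146 CPM in iKO samples 1 to 4 and 52.4, 106, 157 and 204 CPM in control samples 1 to 4. iKO samples 1 and 2 were below every control sample, and iKO samples 3 and 4 lay within the control range. The means were 82.5 ± 77.7 and 129.9 ± 65.3 CPM (SD, n = 4 each), and the log2 difference was -0.73 (SE 0.79, adjusted p 0.672 by edgeR).

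The same samples were low for the other genes of the naive and memory side. Lef1 had 13.2, 11.6, 89.6 and 102 CPM in iKO samples and 27.7, 56.8, 84.2 and 103 CPM in controls. Bach2 had 2.63, 3.54, 20.9 and 31.1 CPM in iKO samples and 10.4, 17.2, 30.3 and 45.7 CPM in controls. For both, and for Id3 with the values given above, iKO samples 1 and 2 were the lowest of all 8 and control sample 1 was next. The log2 differences by edgeR were -0.42 for Lef1 (SE 0.74, adjusted p 0.819), -1.07 for Bach2 (SE 0.83, adjusted p 0.554) and -0.68 for Id3 (SE 0.74, adjusted p 0.678). Leaving out single samples moved the Tcf7 difference between -1.27 (without iKO sample 4) and -0.34 (without iKO sample 2), and the Bach2 difference between -2.11 (without iKO sample 4) and -0.59 (without iKO sample 1), with no call in any case.

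Eomes was also lowest in iKO samples 1 and 2, at 30.8 and 31.6 CPM, and highest in iKO samples 3 and 4, at 98.8 and 72.0 CPM, so that all 4 control samples, between 60.9 and 64.8 CPM, lay inside the gap. Its means were 58.3 ± 33.2 CPM in iKO and 62.35 ± 1.75 CPM in control samples (SD, n = 4 each). The log2 difference of -0.17 (SE 0.35, adjusted p 0.858) changed sign without iKO sample 1 (0.05) or iKO sample 2 (0.06).

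The effector and exhaustion-associated members ran the other way along the iKO samples. Along the control samples in order, Id2, Prdm1 and Tox fell, while Nr4a2 and Tbx21 did not fall steadily. Id2, Prdm1, Tbx21, Tox and Nr4a2 were each higher in iKO samples 1 and 2 than in iKO samples 3 and 4, by the values given above for Id2, Prdm1, Tox and Nr4a2. Tbx21 had 51.0, 52.9, 34.1 and 40.9 CPM in iKO samples and 33.3, 35.9, 41.5 and 26.6 CPM in controls. Its means were 44.7 ± 8.82 and 34.3 ± 6.21 CPM (SD, n = 4 each) and its groups overlapped. It was the member that passed the unadjusted threshold, with a log2 difference of 0.41 (SE 0.17, adjusted p 0.246). Id2 averaged 625 ± 159.6 CPM in iKO and 476 ± 121 CPM in control samples (SD, n = 4 each), a log2 difference of 0.41 (SE 0.22, adjusted p 0.366). Tox (log2 0.03, SE 0.25, adjusted p 0.973), Nr4a2 (log2 0.11, SE 0.22, adjusted p 0.849) and Prdm1 (log2 0.21, SE 0.27, adjusted p 0.726) were not called. Tox averaged 194 ± 47.3 CPM in iKO and 192 ± 68.4 CPM in control samples (SD, n = 4 each).

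**Figure D2:**
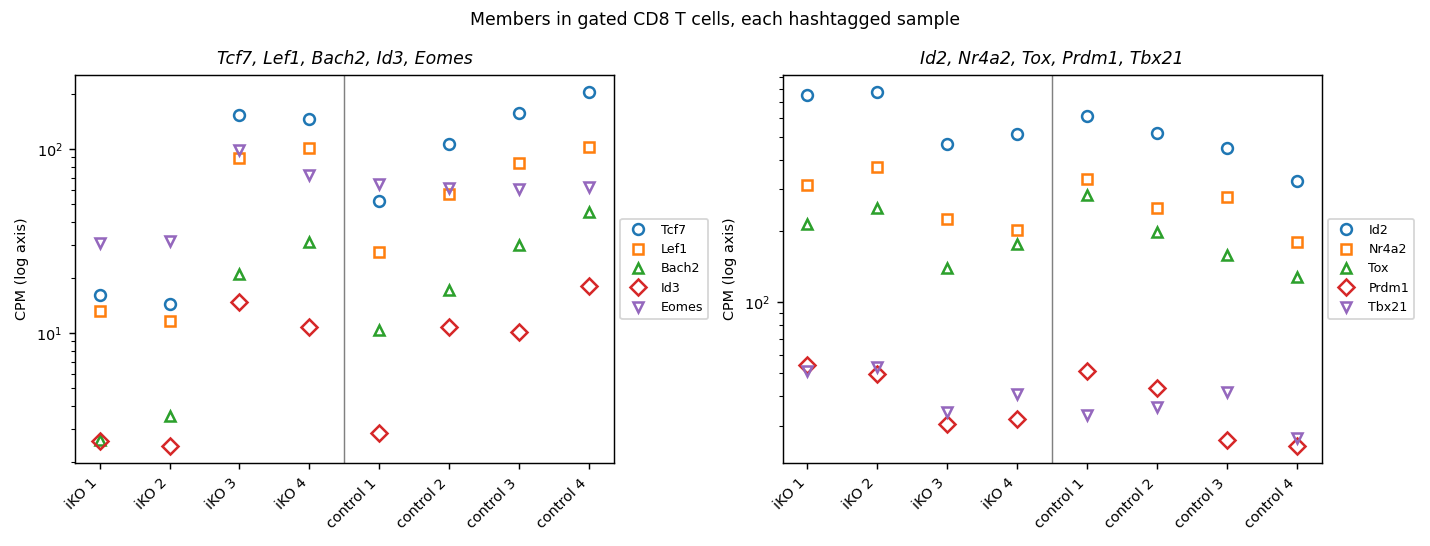
Level of the 10 members in gated CD8 T cells (vertical axis, CPM, log scale) in each of the 8 hashtagged samples (horizontal axis), 1 symbol per gene. In the left panel Tcf7, Lef1, Bach2, Id3 and Eomes were lowest in iKO samples 1 and 2, and in the right panel Id2, Nr4a2, Tox, Prdm1 and Tbx21 were higher in those samples than in iKO samples 3 and 4.

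The CD8 T cells of iKO samples 1 and 2 were also the most numerous and most deeply counted: 1272 and 2505 cells with medians of 17865.5 and 14881 UMIs, against 184 and 292 cells with 8069.5 and 8250 UMIs in iKO samples 3 and 4. Control samples 1 to 4 had 440, 238, 237 and 151 CD8 T cells with medians of 12347.5, 9166.5, 7620 and 7639 UMIs. The part of depth in the member levels was not tested. After thinning each cell to 2000 UMIs, which left out 42 iKO and 11 control CD8 T cells, the share of CD8 T cells with a Tcf7 UMI was 4.21, 4.03, 26.5 and 24.3% in iKO samples and 15.5, 23.9, 30.8 and 36.5% in controls. That share was 0 to 0.308% per sample in macrophages, a cell type that should lack Tcf7, thinned to the same depth. The low Tcf7 samples therefore held few CD8 T cells with a Tcf7 UMI at equal depth.

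Hashtag numbers are shared between the pools, and in CD8 T cells same-numbered samples deviated together in part, although the labels give no reason to pair them. With the number as a block, 7.75% of all genes were called in CD8 T cells, and 2 members were among them: Bach2, lower in iKO (log2 -1.34, adjusted p 0.0189), and Id2, higher in iKO (log2 0.40, adjusted p 0.0409). Without the block neither was called.

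In CD4 T cells 8 members were tested (Eomes and Id3 were below the low-count filter). edgeR called 0 of them, and 0 passed unadjusted, where 1.95% and 12.8% of 5430 genes did, and DESeq2 called 0. None had groups free of overlap, which 7.7% of all genes had. Their log2 differences ran from -0.59 (Bach2) to 0.36 (Tbx21) with a median of 0.02, where the median over all genes was -0.02. For Tcf7, at 211 ± 5.29 CPM in iKO and 234 ± 28.9 CPM in control samples (SD, n = 4 each), the difference was -0.16 (SE 0.14, adjusted p 0.676), and for Lef1 it was 0.35 (SE 0.30, adjusted p 0.681).

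In Treg cells 7 members were tested (Eomes, Id3 and Bach2 were below the filter). edgeR called 0 after adjustment and 3 at an unadjusted p under 0.05, where 1.72% and 13.8% of 6354 genes passed, and DESeq2 called 0. All groups overlapped, against 8.44% of genes without overlap. The 3 were Tcf7 (log2 -1.34, SE 0.59, adjusted p 0.326), Lef1 (log2 -0.73, SE 0.28, adjusted p 0.261) and Nr4a2 (log2 -0.75, SE 0.30, adjusted p 0.29). Tcf7 averaged 14.3 ± 11.04 CPM in iKO and 33.1 ± 13.9 CPM in control samples, and Nr4a2 57.0 ± 23.8 and 86.1 ± 27.3 CPM (SD, n = 4 each). With no low-count filter edgeR called Tcf7 in Treg cells (log2 -1.30, adjusted p 0.0319). That setting also called more genes in all, as counted in the last section, and their share of the genes tested is not given here. Gating on thinned cells turned the Nr4a2 difference to 0.25.

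In NK cells too few samples held 10 cells for a test of genotype, so all 8 samples, with 4 to 30 NK cells each, were used in a test added after the data were seen. Of 4 members tested, edgeR called 0, and 0 passed unadjusted, where 0.969% and 10.9% of 1341 genes did, and DESeq2 called 0. Pooled over samples, NK cells had 35 Tcf7 UMIs (70.2 CPM) in iKO and 57 (152 CPM) in control, and the log2 difference was -1.05 (SE 0.54, adjusted p 0.519). Eomes (0.44), Id2 (0.16) and Nr4a2 (0.09) differed less. The 5 genes of the NK list summed to 17134 to 17960 CPM in the NK gate of the iKO samples with 10 cells and 7271 to 11218 in that of the controls. The NK-gated controls also held more transcripts of a list of genes of type 1 innate lymphoid or tissue-resident cells, 229 to 801 summed CPM against 54.4 to 94.4 in iKO samples, and the part of either list in these differences was not tested.

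**Figure D3:**
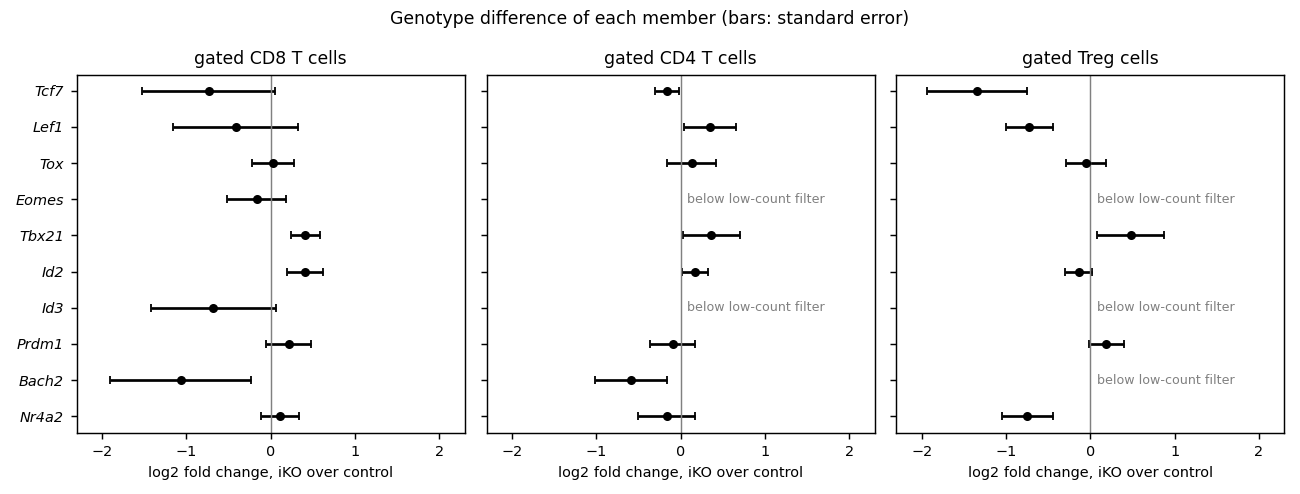
Log2 difference of each member between iKO and control samples (horizontal axis) in the CD8 T, CD4 T and Treg gates, with bars of 1 standard error, for the members that passed the low-count filter of that gate. None passed the adjusted threshold, and the widest bars, in CD8 T cells, belonged to Tcf7, Lef1, Bach2 and Id3.

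Whether the genotype difference itself changed with the gate was tested as an interaction. No member was called by edgeR in CD8 T minus CD4 T (where 0.0228% of genes were), CD8 T minus Treg (0.0114%) or CD8 T minus NK (0%), while 0, 1 (Id2) and 2 members (Eomes and Bach2) passed unadjusted, where 4.61, 5.67 and 7.36% of all genes did, and DESeq2 called 0. The difference for Tcf7 was -1.16 between CD8 T and CD4 T cells (SE 0.65) and for Lef1 -1.16 (SE 0.63). With no low-count filter edgeR called both, and 0.709% of all genes (Tcf7, log2 -1.12, adjusted p 0.00229; Lef1, log2 -1.12, adjusted p 0.0122).

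Few genes of the 5 lists around the members were called between genotypes, and 5 of the 6 calls were of effector genes. Gzmb is counted there once in each of CD4 T, Treg and NK cells, and the gates share samples, so these calls are not independent. Of all genes 2.95% were called in CD8 T, 1.95% in CD4 T, 1.72% in Treg and 0.969% in NK cells. In CD8 T cells 1 of 12 effector genes was called, Fasl, the ligand of the death receptor Fas, with 78.6 ± 4.33 CPM in iKO and 48.4 ± 5.49 CPM in control samples (SD, n = 4 each), a log2 difference of 0.70 (SE 0.10, adjusted p 0.00487) that held with each sample left out (adjusted p 0.0112 to 0.0264). None of 25 partner factors, 9 naive and memory genes, 10 exhaustion genes or 10 immediate-early genes was called there. Their median differences were -0.04, -0.75, 0.42 and 0.19, and that of the effector list was 0.48. In CD4 T cells 2 of 9 effector genes were called, Gzmb, a cytotoxic protease (log2 2.68, SE 0.57, adjusted p 0.0219), and Nkg7, a protein of cytotoxic granules (log2 0.78, SE 0.17, adjusted p 0.0269). In Treg cells Gzmb (log2 1.74, SE 0.28, adjusted p 0.0176) and Entpd1, the ectoenzyme CD39 (log2 1.15, SE 0.25, adjusted p 0.0424), were called, and in NK cells Gzmb (log2 2.54, SE 0.56, adjusted p 0.0467). The 5 calls outside CD8 T cells were each lost when any of several single samples was left out, with adjusted p up to 0.0956 and 0.0909 for Gzmb and Nkg7 in CD4 T cells, 0.0913 and 0.172 for Gzmb and Entpd1 in Treg cells and 0.186 for Gzmb in NK cells. The part of RNA from CD8 T cells, free or in doublets, in these 5 calls was not tested.

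Within the CD8 T gate, cells with and without a Tcf7 UMI at equal depth were compared inside each sample. The split was read after thinning to 2000 UMIs, whole counts were then summed, and the sample was kept as a block. Of the other 9 members edgeR called 7, 3 higher and 4 lower, where 42.7% of 7761 genes were called (22.3% higher, 20.3% lower). The members that went with Tcf7 were Lef1, Bach2 and Id3, and those that went against it were Tox, Nr4a2, Id2 and Prdm1.

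Lef1 averaged 184 ± 53.6 CPM in cells with a Tcf7 UMI and 36.8 ± 22.2 CPM in cells without (SD, n = 8 samples), and was higher in 8 of 8 samples (log2 2.78, SE 0.21, adjusted p 1.98e-07). Bach2 averaged 50.6 ± 20.4 against 14.4 ± 11.3 CPM, higher in 8 of 8 (log2 2.43, SE 0.33, adjusted p 3.09e-05). Id3 averaged 23.2 ± 12.8 against 6.10 ± 4.27 CPM, higher in 7 of 8 (log2 2.40, SE 0.36, adjusted p 8.79e-05).

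Nr4a2 averaged 79.5 ± 48.0 CPM in cells with a Tcf7 UMI and 299.9 ± 55.0 CPM in cells without, lower in 8 of 8 samples (log2 -1.83, SE 0.22, adjusted p 8.49e-06). Tox averaged 65.7 ± 21.0 against 215 ± 46.5 CPM, lower in 8 of 8 (log2 -1.56, SE 0.11, adjusted p 9.25e-08). Prdm1 averaged 15.2 ± 5.65 against 42.4 ± 10.7 CPM (log2 -1.29, SE 0.16, adjusted p 1.4e-05) and Id2 235 ± 101.6 against 602 ± 126 CPM (log2 -1.27, SE 0.13, adjusted p 2.64e-06), each lower in 8 of 8. Neither T-box factor was called. Eomes had a log2 difference of 0.44 (SE 0.21, adjusted p 0.105), called without iKO sample 3 (log2 0.64, adjusted p 0.00403), and Tbx21 one of -0.18 (SE 0.13, adjusted p 0.274).

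**Figure D4:**
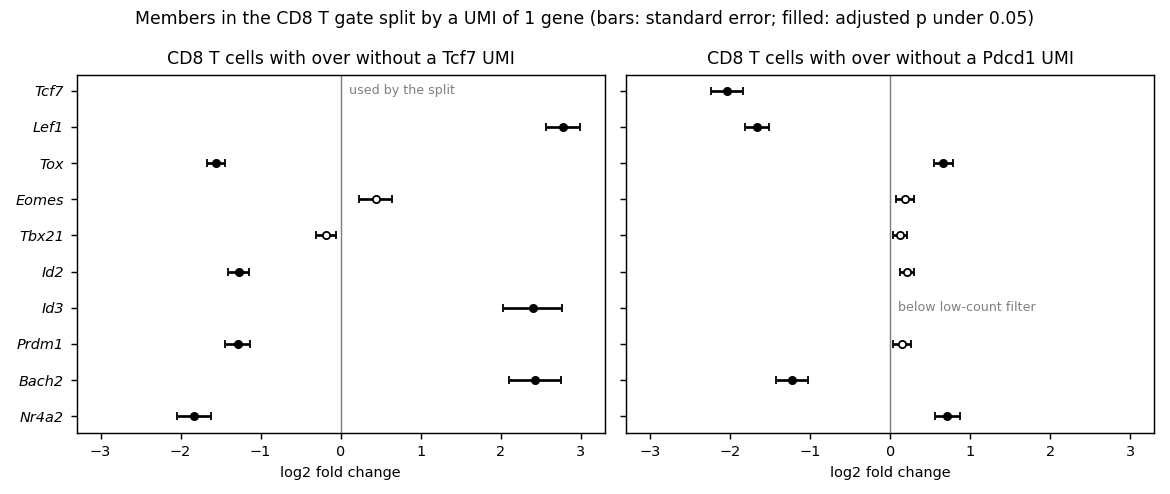
Log2 difference (horizontal axis) of each member (vertical axis) between CD8 T cells with and without a Tcf7 UMI (left) and with and without a Pdcd1 UMI (right), with bars of 1 standard error and filled points for an adjusted p under 0.05. Lef1, Bach2 and Id3 lie to the right and Tox, Nr4a2, Id2 and Prdm1 to the left for Tcf7, and Tcf7, Lef1 and Bach2 to the left and Tox and Nr4a2 to the right for Pdcd1.

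Cells with a Tcf7 UMI had median totals of 6504.5 to 10130 UMIs per sample and cells without had 8432.5 to 18382, lower with the UMI in 8 of 8 samples. The part of these totals in the split was not tested. The lists around the members followed the split. Among partner factors 12 of 25 were higher and 6 lower, with the quiescence factors Klf2 (log2 2.56, SE 0.22) and Foxo1 (1.54, SE 0.19) and the chromatin organiser Satb1 (2.53, SE 0.17) higher. Naive and memory genes had 8 of 9 higher and 1 lower. Effector genes had 1 of 11 higher and 8 lower, including Ifng (log2 -2.92, SE 0.25) and the pore protein gene Prf1 (-2.53, SE 0.20). Exhaustion genes had 1 of 9 higher and 7 lower, including the inhibitory receptors Havcr2 (log2 -3.20, SE 0.27) and Lag3 (-2.11, SE 0.19). The medians of these 4 lists were 0.30, 2.75, -1.18 and -2.07, where that over all genes was 0.01. Of 10 immediate-early genes, which rise when tissue is dissociated, 2 were higher and 3 lower.

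A second split, by a UMI of Pdcd1 at equal depth, called 5 of 9 members tested, 2 higher and 3 lower, where 4.3% of 8950 genes were called (0.793% higher, 3.51% lower). Id3 was below the filter and averaged 3.03 CPM in cells with Pdcd1 and 11.6 CPM in cells without, lower in 8 of 8 samples. Both splits use the same cells and samples, so their values stand side by side only.

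Tcf7 averaged 31.7 ± 31.0 CPM in cells with a Pdcd1 UMI and 138 ± 93.1 CPM in cells without (SD, n = 8 samples), lower in 8 of 8 (log2 -2.04, SE 0.20, adjusted p 3.12e-05). Lef1 averaged 23.0 ± 17.6 against 78.0 ± 49.6 CPM (log2 -1.66, SE 0.15, adjusted p 1.52e-05) and Bach2 8.32 ± 5.74 against 25.2 ± 19.6 CPM (log2 -1.23, SE 0.20, adjusted p 0.00189), each lower in 8 of 8. Tox averaged 259 ± 37.2 against 162 ± 63.5 CPM, higher in 8 of 8 (log2 0.66, SE 0.12, adjusted p 0.00353).

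Nr4a2 averaged 369 ± 69.9 against 224 ± 81.6 CPM, also higher in 8 of 8 (log2 0.71, SE 0.16, adjusted p 0.0148), a call lost without control sample 3 (adjusted p 0.0611). Eomes (log2 0.19), Tbx21 (0.12), Id2 (0.21) and Prdm1 (0.15) were not called. All 5 calls rest on the sample block: without it edgeR and its adjustment called 0 members and 1.37% of all genes. With the split read from whole counts, 8 members were called, where 52.3% of all genes were.

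The lists differed in how they went with Pdcd1. Effector genes had 3 of 12 higher, Gzmb (log2 0.84, SE 0.22), Cxcr6 (0.62, SE 0.11) and Nkg7 (0.42, SE 0.070), and 1 lower, Gzma (-1.54, SE 0.40). Immediate-early genes had 0 of 10 higher and 3 lower, Fos (log2 -1.07, SE 0.20), Jun (-0.86, SE 0.15) and Hspa1a (-0.69, SE 0.18), while Nr4a2 was higher. The calls of Gzma, Gzmb and Hspa1a were each lost without any of 5 single samples (adjusted p up to 0.133, 0.146 and 0.139). Naive and memory genes had 7 of 9 lower and 1 higher, including Igfbp4 (log2 -2.68, SE 0.38). Exhaustion genes other than Pdcd1 had 4 of 9 higher, Lag3 (0.66, SE 0.11), Havcr2 (0.61, SE 0.13), Ctla4 (0.52, SE 0.13) and Cd160 (0.47, SE 0.10). Ctla4 lost its call without any of 5 single samples (adjusted p up to 0.125), and Havcr2, Lag3 and Cd160 kept theirs in each case. Partner factors had 2 of 25 higher and 4 lower, Satb1 (-1.65, SE 0.24), Klf2 (-1.58, SE 0.24), Foxp1 (-0.97, SE 0.16) and Foxo1 (-0.55, SE 0.14). The Foxo1 call was lost without iKO sample 4 or any control sample (adjusted p up to 0.0929). The medians were -1.42 for naive and memory genes, 0.47 for exhaustion genes, 0.31 for effector genes, -0.081 for immediate-early genes and -0.053 for partner factors, where that over all genes was 0.01.

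Cells with UMIs of both genes, the combination by which stem-like exhausted CD8 T cells are known, were few. At 2000 UMIs per cell, 0.556, 1.01, 4.42 and 2.08% of CD8 T cells in iKO samples and 1.14, 0.855, 1.71 and 2.70% in control samples held a UMI of both Tcf7 and Pdcd1. Tcf7 and Tox were found together in 0.443 to 5.13% and Pdcd1 and Tox in 6.84 to 19.2% of CD8 T cells per sample. At this depth a missing UMI does not show a missing transcript, so cells with both can be missed. Free RNA or remaining doublets can also add a UMI, and their part in these shares was not tested. The share with a Pdcd1 UMI was 45.4, 46.2, 33.1 and 24.7% in iKO samples and 29.4, 21.8, 17.5 and 22.3% in controls, where macrophages thinned to the same depth held 0 to 1.54% with a Pdcd1 UMI and 0 to 0.87% with a Tox UMI.

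Across the 28 profiles of all gates and samples, the members' levels (log2 of CPM + 1) were alike in some pairs only. Pearson's r was 0.82 between Tcf7 and Lef1, 0.79 between Tcf7 and Bach2, 0.74 between Eomes and Nr4a2, 0.70 between Tbx21 and Id2, -0.77 between Bach2 and Prdm1 and -0.67 between Tcf7 and Prdm1. Tcf7 was close to 0 with Tox (-0.045), Nr4a2 (0.035) and Id2 (0.088). Prdm1 was at -0.56 with Id2, -0.50 with Nr4a2 and -0.67 with Eomes, Tox at -0.46 with Id2, and Eomes at 0.47 with Bach2. These are descriptions over profiles that share samples and differ in depth. Among 5698 other genes the 3 most like Tcf7 were Rps21 (0.91), Klf3 (0.90) and Arid5a (0.89). Those most like Eomes were Spry2 (0.92), Tm6sf1 (0.92) and Ccl5 (0.91), and those most like Prdm1 Zbtb38 (0.91), Rilpl2 (0.88) and Wnk1 (0.88). For Tox they were Nde1 (0.85), Stard4 (0.85) and Il21r (0.84), for Nr4a2 Xcl1 (0.82), Sh2d2a (0.80) and Crtam (0.79), and for Id2 Itgal (0.83), Serpinb9 (0.82) and Tmed5 (0.80). Lef1 was most like A930005H10Rik (0.86), Tnfsf8 (0.84) and Cmah (0.84), Bach2 most like AB124611 (0.90), Gm2682 (0.89) and Parp8 (0.88), and Id3, with the weakest likeness, most like Acp5 (0.77), Rps19 (0.74) and Rps13 (0.73). Tbx21 was most like Cd244a, Efhd2 and Nkg7 (0.79 each).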

How the data were processed

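The authors deposited raw UMI counts per gene and cell barcode, 1 matrix for each of the 8 hashtagged samples, made with Cell Ranger 7.1.0 on GRCm39 per the submitters' processing notes. Its other settings were not given in the sources used. From these counts, cells with at least 300 genes and at most 10% mitochondrial UMIs were kept (1241 of 23731 barcodes removed), and 439 cells (1.95%) with a Scrublet score over 0.25 were removed as doublets with scanpy 1.11.5. Gates allowed under 0.5% of UMIs from myeloid or from class II genes and at most 1 B cell UMI. NK cells needed 2 UMIs of Ncr1 or Klrb1c. The 92 spike-in and 4 hashtag features were left out.

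Counts were summed per gate and sample (10 cells or more), normalised by TMM, filtered by edgeR's default low-count filter and tested with edgeR 4.0.16 (quasi-likelihood) in R 4.3.3. DESeq2 1.42.0 was an alternative. The others were size factors, filters, gates, doublet removal, the sample block, 20 cells per profile, 1 genotype alone, and leaving out each sample. On simulated data 98% of 200 genes changed 4-fold were recovered for genotype in CD8 T cells (9753 genes). This share does not give the recovery of smaller changes or of genes with a wide spread. In that comparison Tcf7, Lef1, Id3 and Bach2 had SEs of 0.79, 0.74, 0.74 and 0.83, so the share does not show that changes in them would be called.

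Same-numbered samples of the 2 pools deviated together in CD8 T cells (r = 0.60, 0.13, 0.22 and 0.36 for numbers 1 to 4), but not in CD4 T (-0.06 to 0.03) or Treg cells (-0.11 to 0.10), so the pairing comes from the data and not from the labels. In CD8 T cells 2 of the 4 iKO samples correlated more with another number: iKO sample 2 with control sample 1 (0.59) and iKO sample 3 with control sample 4 (0.33).

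The members, gene lists and comparisons were chosen with earlier results of these data known. All 10 members are described, from each list at most the 4 called genes of largest change in the genotype comparisons and the CD8 T splits, and 3 genes most like each member. List genes named in comparisons of gates (Myb, Runx3, Stat3, Maf, Rora, Klf2 and Ikzf2) were picked after their values were seen. One gene that this rule names is not reported here.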

Additional observations from a re-analysis of the deposited data

Results flagged for a closer look

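Bach2 in CD4 T cells stood apart in 1 sample. Control sample 4 had 82.6 CPM, while the other 3 control samples had 21.9 to 30.6 CPM. Of 60 groups of 4 samples tested for a sample far from the others, this was the only one flagged. Chance alone flags about 1 in 20 such groups, so a single flag among 60 is no more than chance gives. The same sample was not the highest for Bach2 in Treg cells (7.84 CPM against 13.2 CPM in control sample 1).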

How the results depend on the processing

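Of the values recomputed under alternatives, 44 single-gene differences changed sign, 197 crossed the threshold and 90 counts moved by more than 1.5 times. The cause was not tested. Most member counts listed below stand without the share of all genes tested, so they are not read as results about the members. The Pdcd1 split in iKO samples only has no count of all genes either. Shares of all genes are also not given for DESeq2 in CD4 T, Treg and NK cells. The planned genotype test in NK cells was not run, since only 2 samples per group held 10 cells. Depth limits Id3, Bach2 in Treg cells and all NK values.

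In CD8 T cells 288 genes were called between genotypes, 524 by DESeq2, and 756 with the replicate block, which called 2 members. No other pairing of the samples was tested. With no low-count filter, calls between genotypes were 297 in CD4 T, 359 in Treg (1 member; Tox 0.00047) and 80 in NK cells, 1154 in the Pdcd1 split, and 140 (2 members, Tcf7 and Lef1), 124 and 45 for the genotype effect in CD8 T minus CD4 T, Treg and NK. DESeq2 gave 4 and 6 for the first 2 of these, stricter contamination limits 0, 2 and 2 (97 in the Pdcd1 split), and the looser gate 2 for the last and 28 between genotypes in NK cells. Gating on thinned cells gave 62 in CD4 T (Id2 -0.22), 69 in Treg (Prdm1 -0.038, Nr4a2 0.25), 31 in NK (Eomes -0.0016, Id2 -0.087), 745 for CD4 T against Treg (3 members; Eomes -0.41, Tbx21 0.052), Prdm1 at -0.51 for CD8 T against CD4 T, and 0 and 0 for the genotype effect against CD4 T and Treg.

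With 20 cells per profile, genes and members called against NK were 513 and 2 for CD8 T, 432 and 3 for CD4 T, and 944 genes for Treg. With no replicate block, Tcf7 and Lef1 turned to 0.16 and 0.40 for CD8 T against NK, and the Pdcd1 split called 123 genes and 0 members. Read on unthinned counts, that split called 4377 genes and 8 members (Eomes -0.0100). In iKO samples only, calls were 1034 for CD8 T against CD4 T, 1276 against Treg and 462 against NK (3 members), 769 for CD4 T against Treg and 410 against NK (1 member), 885 for Treg against NK, 2087 in the Tcf7 split, and 3 members in the Pdcd1 split (Prdm1 -0.021). In control samples only they were 1492 (Prdm1 -0.026), 934, 523 (Lef1 0.31), 1272 (Eomes -0.14, Nr4a2 -0.22), 328 (3 members), 752 (5 members) and 1976 in the same order, and 157 in the Pdcd1 split (Tbx21 -0.045).

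Leaving out 1 sample at a time gave 122 to 250 genotype calls in CD8 T (Tox -0.12 to 0.28, Nr4a2 -0.065 to 0.25, Eomes -0.53 to 0.060), 56 to 149 in CD4 T (Nr4a2 -0.56 to 0.080, Tox -0.10 to 0.33, Prdm1 -0.29 to 0.12), 6 (without iKO sample 2) to 288 (without control sample 1) in Treg (Tox -0.24 to 0.056) and 5 to 24 in NK cells (Nr4a2 -0.15 to 0.44). It gave 3 to 6 members and 818 to 1349 genes for CD8 T against NK (Lef1 -0.50 to 0.51), Id2 at -0.00054 to 0.19 for CD8 T against CD4 T, and Tbx21 at -0.21 to 0.11 and Nr4a2 at -0.091 to 0.21 for CD4 T against Treg. The genotype effect called 0 to 3 genes against CD4 T, 0 to 4 against Treg and 0 to 1 against NK.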
